A study of Mus musculus with 2 samples.

Results

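The genes described here build, organise and bind the hyaluronan and proteoglycan matrix of the embryonic mouse face. They are the hyaluronan synthases Has1, Has2 and Has3, the chondroitin sulfate proteoglycans Vcan and Ncan, the link protein Hapln1, the hyaluronan receptor Cd44, and the small leucine-rich proteoglycans Bgn, Dcn and Lum. These 10 genes of the 43346 in the gene tables were chosen by symbol, and their 36 transcripts were taken from the transcript tables. The tissue was embryonic facial prominence, the swellings that form the upper and lower face, from mixed-sex mouse embryos of strain B6NCrl aged 11.5 days. Total RNA longer than 200 nt was sequenced from 2 libraries, each made from 10 ng of RNA with spike-ins. Library 1 pooled 109 embryos and library 2 pooled 88. No genotype, treatment or second stage was labelled, so the libraries form 1 group and no comparison between conditions was possible.

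Hyaluronan is a very long sugar chain that synthases in the cell membrane extrude directly into the space around cells. Lecticans such as versican bind it at one end of their core protein, link proteins lock that contact, and Cd44 anchors the chain to the cell surface. In embryonic mesenchyme this hydrated matrix fills the space between migrating and dividing cells, while small leucine-rich proteoglycans coat collagen fibrils and bind growth factors. The core protein of versican, product of Vcan, exists as splice forms that differ in 2 large exons to which chondroitin sulfate chains attach. V0 holds both, V1 only the beta exon, V2 only the alpha exon and V3 neither.

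The junctions that tell the 4 Vcan forms apart are shown first, since the shares given below rest on how reads were divided among transcripts that share nearly all their sequence. Vcan lies on the minus strand of chromosome 13 of mm10, at chr13:89655312-89742509. Its exon 7, the alpha exon, spans chr13:89702918-89705797 and is 2880 nt long. Exon 8, the beta exon, spans chr13:89688285-89693501 and is 5217 nt long. The lines below run 5′ to 3′ on the transcript, with the last 25 bases of the upstream exon in lower case and the first 25 bases of the downstream exon in capitals. Each of these joins occurs in 1 of the 9 annotated Vcan transcripts.
V0, exon 7 to exon 8: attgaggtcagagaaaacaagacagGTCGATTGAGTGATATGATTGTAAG
V1, exon 6 to exon 8: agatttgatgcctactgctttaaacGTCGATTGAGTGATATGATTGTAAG
V2, exon 7 to exon 9: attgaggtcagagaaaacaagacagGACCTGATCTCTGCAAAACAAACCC
V3, exon 6 to exon 9: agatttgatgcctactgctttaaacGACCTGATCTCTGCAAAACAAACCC

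**Figure D1:**
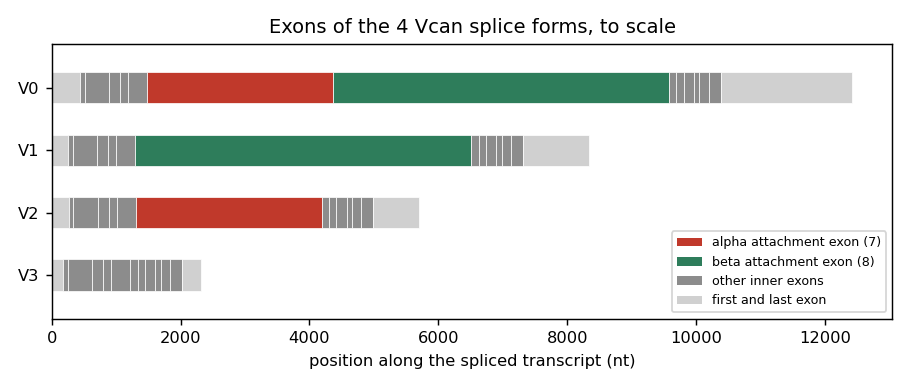
Exons of the 4 Vcan splice forms drawn to scale along the spliced transcript (x axis, nt), with the alpha exon in red, the beta exon in green, other inner exons in dark grey and the first and last exons in light grey. V0 is 12427 nt long, V1 8332 nt, V2 5702 nt and V3 2321 nt, and the last exon also shortens from V0 to V3.

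Levels are given in TPM, an abundance of transcripts corrected for their length, a scale that allows genes to be compared within a library. Every value after ± is the SD over the 2 libraries (n = 2). Detection meant at least 1 TPM in each library. By this rule 8 of the 10 genes were detected, where 58.5% of 21474 protein-coding genes were. The median over the 10 genes was 7.19 TPM, against 3.45 TPM over protein-coding genes. Lum and Vcan stood at the top and the 3 synthases at the bottom. In 8 of the 9 steps down the order Lum, Vcan, Bgn, Dcn, Hapln1, Ncan, Cd44, Has2, Has1, Has3 the lower library of a gene lay above the higher library of the next. Has1 and Has3 overlapped. In bulk tissue, fewer cells of a type and less RNA per cell cannot be told apart.

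**Figure D2:**
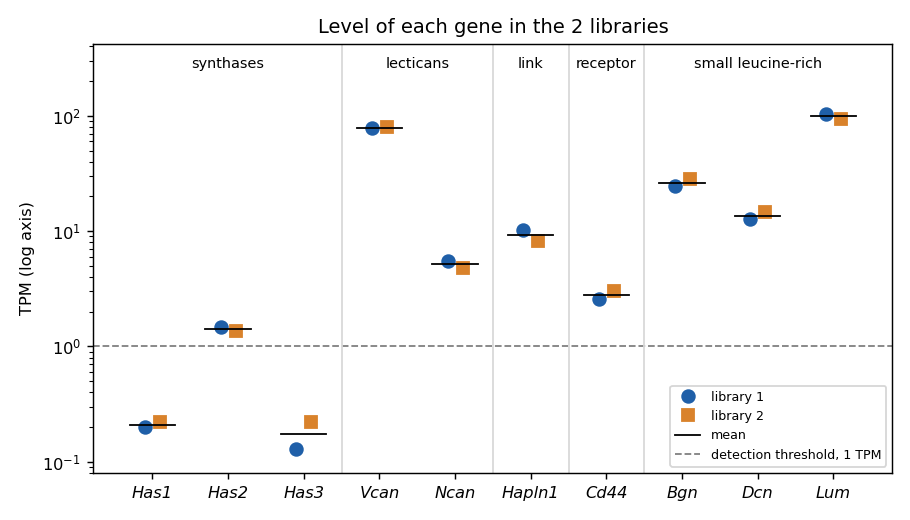
Level of each of the 10 genes in TPM (log axis), with library 1 as circles, library 2 as squares, the mean as a bar and the 1 TPM detection threshold as a dashed line. Lum and Vcan lie near 100 and 79 TPM, while Has1 and Has3 lie below the threshold in both libraries.

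Of the synthases, Has2, the main hyaluronan synthase of the early embryo, was the only one detected. It lay on chr15:56665627-56694539 and measured 1.46 TPM in library 1 and 1.35 in library 2, from 124 and 117 counts. Its mean of 1.41 ± 0.0778 TPM was above that of 42.6% of protein-coding genes. Has1, on chr17:17843323-17855205, measured 0.20 and 0.22 TPM from 8 and 9 counts. Has3, on chr8:106870242-106884566, measured 0.13 and 0.22 TPM from 16 and 27 counts. Both stayed below the detection threshold in each library, and their values did not separate. The ratio of Has2 to Has1 within a library was 7.30 in library 1 and 6.14 in library 2, a mean of 6.72 ± 0.823. That of Has2 to Has3 was 11.2 and 6.14, a mean of 8.68 ± 3.60. With the authors' posterior mean TPM the latter ratio was lower, at 6.22 and 3.69, a mean of 4.96 ± 1.78. On either estimate both libraries placed Has2 above each of the others. The ratio to Has3 varied more, with 43 counts for Has3 over both libraries. The 3 synthases summed to 1.79 TPM in each library.

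Antisense neighbours overlap Has2 and Has3, and the strandedness of the libraries was not stated. Whether reads of these neighbours entered the levels of Has2 and Has3 was not tested. Has2os, an antisense transcript that shares 182 exonic nt with Has2, measured 0.97 and 1.85 TPM. Chtf8, a sister chromatid cohesion gene that shares 352 exonic nt with Has3 on the opposite strand, measured 109 and 106 TPM, far above Has3 itself. The point estimate gave all 16 and 27 Has3 counts to its longest transcript. It gave 0 to a shorter transcript with a last exon of 352 nt and 352 nt found in no other Has3 transcript. The authors' posterior mean estimate placed Has3 at 0.23 and 0.36 TPM, from 16.4 and 27.6 counts. That estimate gave its longest transcript 51.6 and 57.0% of the gene where the point estimate gave 100% in both.

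The medians of the genes that supply and remove hyaluronan lay well above its synthases. All 8 listed genes for making the 2 sugar nucleotides that synthases join were detected, at a median of 29.9 TPM. Ugdh, which makes UDP-glucuronic acid, measured 84.0 and 90.3 TPM, a mean of 87.1 ± 4.50. Ugp2, which makes UDP-glucose upstream of it, measured 53.4 and 57.2 TPM, and Uap1, which makes UDP-N-acetylglucosamine, 50.1 and 53.7. These sugar nucleotides also serve other glycans. Of 10 genes for hyaluronan breakdown 6 were detected, and the median over all 10 was 12.3 TPM. The highest was Hyal2, a membrane-anchored hyaluronidase, at 113 and 104 TPM (108 ± 6.99). Hexa, a subunit of lysosomal hexosaminidase, followed at 51.9 and 39.9 TPM, and Cemip2, a transmembrane protein described as a hyaluronidase in mouse, at 38.0 and 38.2. Spam1, a sperm hyaluronidase, and Hyal4, known for cutting chondroitin, had no count in either library. A count of 0 allows up to 3 counts, here 0.0764 and 0.0751 TPM for Spam1 and 0.0462 and 0.0453 TPM for Hyal4.

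Vcan, the versican gene, dominated the lecticans. It measured 78.0 TPM in library 1 and 79.7 in library 2, from 14108 and 14666 counts, a mean of 78.9 ± 1.17 TPM above that of 91.2% of protein-coding genes. Ncan, the neurocan gene, known as a lectican of the nervous system, lay on chr8:70093085-70120873 and measured 5.50 and 4.83 TPM. The ratio of Vcan to Ncan was 14.2 and 16.5, a mean of 15.3 ± 1.63. Both libraries placed Vcan far above Ncan, library 2 more so. Of the 5 other lectican and link protein genes none was detected, and their median was 0.165 TPM. The highest were Hapln3, a link protein, at 1.06 and 0.68 TPM, Acan, the aggrecan gene of cartilage, at 0.52 and 0.47, and Hapln2, a brain link protein, at 0.24 and 0.09. Vcan stood at 150 and 170 times Acan in the 2 libraries.

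Most Vcan signal was assigned to V0. Its isoform percent, the share of the gene's TPM given to a transcript, was 54.0% in library 1 and 55.8% in library 2, a mean of 54.9 ± 1.21%. V1 took 19.9 and 18.1% (19.0 ± 1.27%), and V3 took 17.3 and 13.2% (15.3 ± 2.90%). V2, the form known from adult brain, took 0.30 and 0%, from 27.1 expected counts in library 1 and none in library 2. The order V0, V1, V3, V2 was the same in both libraries and no 2 forms overlapped. V1 and V3 lay close, however, at 18.1% for V1 in library 2 and 17.3% for V3 in library 1. Their order was not tested against the error of read assignment given below. On the TPM scale V0 measured 43.3 ± 1.60, V1 15.0 ± 0.778 and V3 12.0 ± 2.11. The other 5 transcripts, which lack an end or retain an intron, together took 8.40 and 12.9%, and none of them reached 5% of the gene.

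Grouped by exon, 61.7 ± 3.30% of the TPM of the 4 complete forms held the alpha exon and 82.8 ± 2.88% the beta exon. Neither exon was held by 17.0 ± 2.64%. Because V0 is so much longer, it took a larger part of the reads than of the transcripts, at 76.8 ± 1.69% of expected counts. V1 took 17.8 ± 1.19% of the counts and V3 3.84 ± 0.732%.

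The forms are known with unequal precision. The authors' posterior SD, as a percentage of the posterior mean count, was 1.35 and 1.17% for V0 and 5.49 and 5.53% for V1. It widened to 10.7 and 13.6% for V3, and to 73.4 and 99.4% for V2. In GENCODE M21, 1203 nt of V0 lie in no other Vcan transcript, but V1, V2 and V3 have no base of their own and are told apart by their joins and ends. Their last exons also differ, at 2047 nt in V0, 1019 in V1, 714 in V2 and 303 in V3, so reads from the far end of the gene count toward V0 whichever inner exons the molecule held. The effect of this annotation on the shares was not tested, and the tables hold no counts of junction reads.

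**Figure D3:**
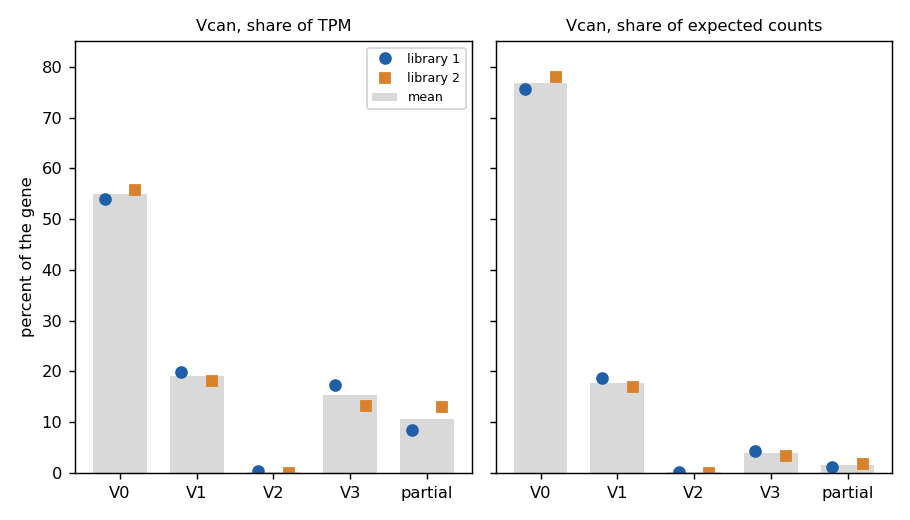
Share of Vcan in each splice form as a percentage of the gene's TPM (left) and of its expected counts (right), with library 1 as circles, library 2 as squares and the mean as a grey bar; "partial" is the sum of 5 incomplete transcripts. V0 leads on both scales, at 54.9% of TPM and 76.8% of counts, while V3 holds 15.3% of TPM but 3.84% of counts.

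Genes that make chondroitin and dermatan sulfate, on any core protein, and genes that cut or bind versican are counted next. Of all protein-coding genes 58.5% were detected. Of 22 genes for chondroitin and dermatan sulfate synthesis 18 were detected, and the median over all 22 was 7.98 TPM. They were led by Dse, the epimerase that turns chondroitin into dermatan, at 36.8 and 34.9 TPM. Next came Chst14, a dermatan sulfotransferase, at 24.2 and 23.9 TPM, and B3gat3, which completes the linker on which chains are built, at 22.9 in both. Of 7 versican proteases 6 were detected, and the median over all 7 was 4.24 TPM. Adamts1 measured 22.2 and 18.9 TPM, Adamts20, known from pigment and palate phenotypes in mouse, 6.52 and 4.98, and Adamts15 5.18 and 5.43. Of 8 matrix and cell-surface partners of versican 6 were detected, and the median over all 8 was 21.2 TPM. Fbln1, a fibulin that binds the lectin domain of lecticans, measured 157 and 150 TPM (154 ± 4.74), Fn1, fibronectin, 91.8 and 92.2, and Fbln2 57.1 and 46.5.

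Hapln1, which encodes the link protein that stabilises the bond between hyaluronan and lecticans, measured 10.2 TPM in library 1 and 8.25 in library 2, from 1034 and 853 counts. Its mean of 9.22 ± 1.36 TPM was above that of 61.1% of protein-coding genes. The ratio of Vcan to Hapln1 was 7.67 in library 1 and 9.66 in library 2, a mean of 8.66 ± 1.41. Hapln1 was thus below its lectican partner Vcan by several-fold in both libraries, and above Ncan by 1.78 ± 0.101 times. Hapln1 and Vcan are neighbours on chromosome 13. Hapln1 lies at chr13:89539796-89611652 on the plus strand, 43.7 kb from Vcan, with no protein-coding gene between them.

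Cd44, the cell-surface hyaluronan receptor, lay on chr2:102811141-102901665 and measured 2.60 and 3.02 TPM, from 228 and 259 counts. It was detected but low, with 48.2% of protein-coding genes below it. Among 12 other hyaluronan receptors and binding proteins 6 were detected, and the median over all 12 was 1.17 TPM. The highest were Hmmr, a hyaluronan-binding protein that also acts at the mitotic spindle, at 47.7 and 53.4 TPM, and Tnfaip6, which transfers protein chains onto hyaluronan, at 47.5 and 51.6. Stab1, a scavenger receptor, measured 15.6 and 18.3 TPM, from 544 and 482 counts. Its TPM was thus higher in library 2 where its counts were lower, so its level is less certain.

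Cd44 transcripts differ by a block of variable exons that lengthen the stem of the protein. Both joins below start from the same constant exon on the minus strand of chromosome 2, with capitals marking the first 25 bases of the exon that follows. Each occurs in 1 of 9 annotated transcripts.
Standard form, constant exon to constant exon: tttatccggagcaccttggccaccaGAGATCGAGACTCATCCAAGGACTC
Main variant form, constant exon to variable exon: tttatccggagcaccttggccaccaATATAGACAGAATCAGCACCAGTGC
The main variant form, with 5 of the 10 variable exons, took 69.3% of the gene in library 1 and 53.8% in library 2. The standard form, with no variable exon, took 30.7 and 39.6%. The longest form, with all 10 variable exons, took 0 and 6.59%. Forms with variable exons were therefore assigned 69.3 and 60.4% of Cd44, a mean of 64.9 ± 6.31%. These shares rest on few reads, and the posterior SD of the standard form was 25.8 and 20.3% of its posterior mean count. That of the longest form was 104 and 74.5%. The last exon is 3197 nt long in the main variant form and 1791 nt in the standard form, so their ends differ in the annotation as well as their variable exons. The effect of these ends on the shares was not tested.

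Lum, the lumican gene, was the highest of the 10 in deposited TPM. It measured 104 TPM in library 1 and 94.4 in library 2, from 4210 and 3892 counts, a mean of 99.1 ± 6.75 TPM above that of 93.0% of protein-coding genes. Bgn, the biglycan gene, lay on chrX:73483602-73495933 and measured 24.6 and 28.1 TPM. Dcn, the decorin gene, measured 12.6 and 14.7 TPM. These fibril-coating proteoglycans summed to 139 ± 2.79 TPM, against 84.0 ± 0.693 TPM for the lecticans Vcan and Ncan. The ratio of Bgn to Dcn was 1.94 and 1.91, a mean of 1.93 ± 0.0208, the tightest of the ratios given here relative to its mean. Lum exceeded Bgn by 3.80 ± 0.618 times and Dcn by 7.32 ± 1.27 times.

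Which of Lum and Vcan leads depends on the scale. Per length, Lum was 1.33 and 1.18 times Vcan, but its transcript is short, and in expected counts it was 0.298 and 0.265 times Vcan. The deposited TPM rests on a Lum transcript of 2075 nt, where GENCODE M21 gives 2448 nt. The lengths of the Vcan transcripts are the same in both. The effect of the longer Lum transcript on this order was not tested. Lum made up 43.4 and 40.2% of the summed TPM of the 10 genes and Vcan 32.6 and 33.9%. Of their counts, Vcan made up 63.8 and 65.6%.

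Lum and Dcn belong to a run of small leucine-rich proteoglycan genes on the plus strand of chromosome 10. Dcn lies at chr10:97479609-97518143 and Lum at chr10:97565128-97572703, 47.0 kb apart. Kera, the keratocan gene, begins 34.2 kb beyond Lum, and Epyc, the epiphycan gene, 30.4 kb beyond Kera. Neighbours in this run differed widely in level. Kera measured 1.11 and 2.72 TPM and Epyc averaged 1.53 ± 0.0424 TPM, so Lum stood at 93.6 and 34.7 times Kera and at 66.6 and 62.9 times Epyc. Of the 12 other small leucine-rich proteoglycan genes listed, 4 were detected, and the median over all 12 was 0.598 TPM. The highest was Ogn, osteoglycin, at 13.2 and 13.0 TPM, followed by Fmod, fibromodulin, at 2.92 and 1.79, and Kera.

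Most small leucine-rich proteoglycan signal came from 1 transcript per gene. The main coding transcript took 96.2 and 90.7% of Bgn, and a short noncoding one 2.13 and 7.01%. The main transcript of Dcn took 100 and 86.0% of the gene, and a second one with the same coding length 0 and 14.0%. Of the 10 genes, 5 have 1 transcript in the tables. Of the 4 detected genes with several, 2 (Cd44 and Dcn) had a transcript whose isoform percent differed by 10 points or more between the libraries, where 29.1% of 9588 detected genes with several transcripts did. In Cd44 this was the main variant form, whose posterior SD was 7.10 and 11.0% of its posterior mean count. In Dcn it was both transcripts, with a posterior SD of 6.97 and 11.1% for the main one and of 85.2 and 49.7% for the other.

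**Figure D4:**
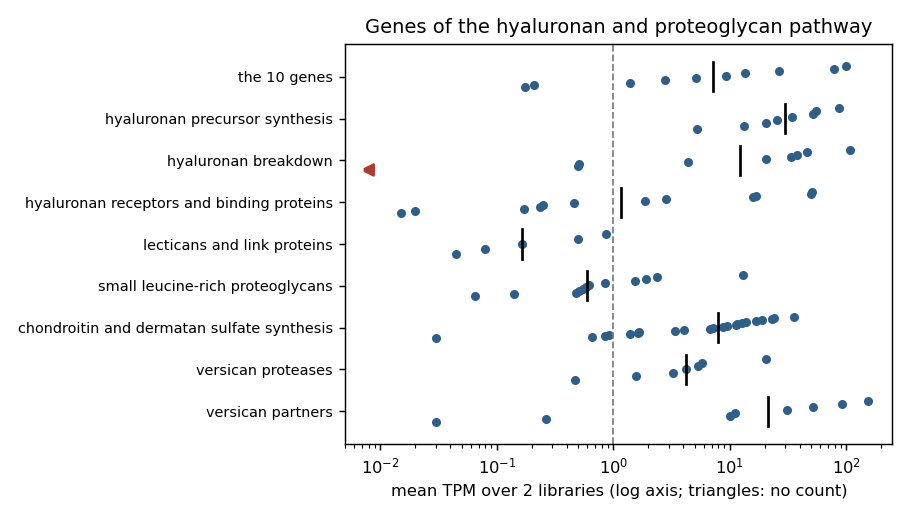
Mean TPM over the 2 libraries (log axis) of each gene in the 10 and in 8 lists of the same pathway, with points as genes, black bars as list medians, a dashed line at 1 TPM and triangles for genes with no count. Every precursor gene lies above 1 TPM, while all 5 other lectican and link protein genes average below it.

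The libraries were then compared gene by gene. Ratios used expected counts scaled by TMM, for genes with 20 or more counts over both libraries, with exact 95% Clopper-Pearson intervals on how the counts divided. These intervals cover counting error only. With 1 library against 1 there was no test, and a ratio describes these libraries. Of the 10 genes 9 could be compared, all but Has1 with its 17 counts. Only Has3 differed by 1.5-fold or more, at 1.69-fold higher in library 2, and its interval of 0.879 to 3.36 included 1. Of all 16671 genes compared, 11.6% differed by as much.

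For 3 genes the interval lay above 1 toward library 2, where 21.2% of all genes did. Dcn was 1.18-fold higher (1.04 to 1.34), Bgn 1.12-fold (1.03 to 1.22) and Vcan 1.04-fold (1.02 to 1.07). For 3 others it lay above 1 toward library 1, where 18.7% of all genes did. Hapln1 was 1.21-fold higher in library 1 (1.10 to 1.33), Ncan 1.12-fold (1.01 to 1.24) and Lum 1.08-fold (1.03 to 1.13). All 6 had 1000 or more counts, and 50.2% of genes at that depth had an interval that excluded 1 in either direction. Has2, at 1.06-fold higher in library 1 (0.815 to 1.37), and Cd44, at 1.14-fold higher in library 2 (0.949 to 1.37), had intervals that included 1. Scaled to spike-in totals the split was 0 genes toward library 2 and 3 toward library 1, with Vcan, Bgn and Dcn at intervals that included 1, and scaled to gene totals it was 2 and 3. With 2 libraries of 1 group, no genes could be named as most alike in pattern to these.

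**Figure D5:**
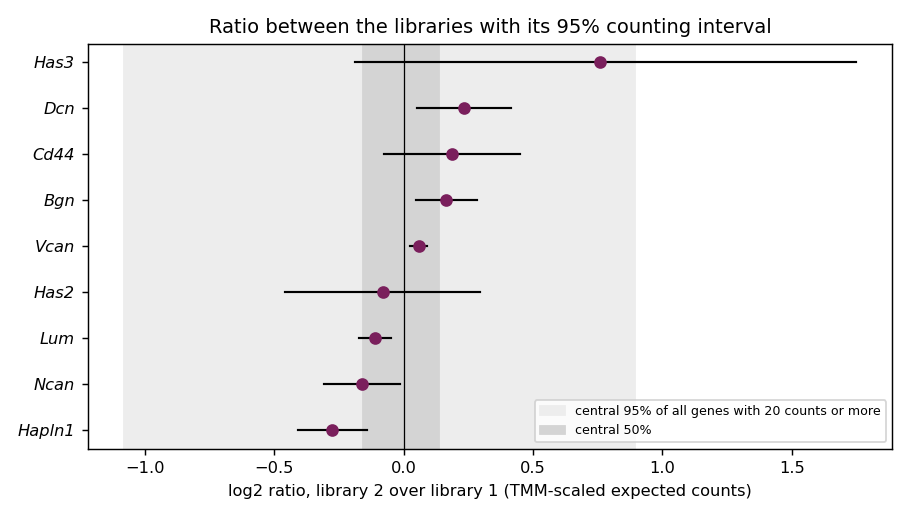
Log2 ratio of library 2 over library 1 for the 9 genes with 20 or more counts, with horizontal lines as 95% counting intervals and grey bands for the central 50% and 95% of all genes compared. The 9 points run from Hapln1 at -0.27 to Has3 at 0.76, all inside the central 95%.

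Marker lists for 10 cell types were set beside these ratios. Mesenchyme markers, among them Vim, Col3a1 and Msx1, were all detected, 8 of 8, where 58.5% of protein-coding genes were. All 8 neuron, endothelial, erythroid and epithelial markers were detected too, so detection alone does not single out the labelled tissue. The mesenchyme markers summed to 1769 TPM in library 1 and 1670 in library 2, with the interval of 3 toward library 2 and of 4 toward library 1. Cartilage markers summed to 248 and 227 TPM, with 4 of 8 detected, 2 toward library 1 and none toward library 2, and Snorc at 3 and 0 counts. Over all genes compared, 18.7% lay toward library 1 and 21.2% toward library 2. Several lists lay toward library 1, the direction of Hapln1, Ncan and Lum, with no gene toward library 2. Neuron markers summed to 663 and 548 TPM, with all 8 toward library 1, and erythroid markers to 11204 and 10302, with 6 of 8. Endothelial markers summed to 214 and 185 TPM, with 5 of 8 toward library 1, and epithelial markers to 260 and 231, with 4 of 8. White blood cell markers summed to 95.1 and 90.7 TPM, with none toward library 2. Only 1 of these 8 lay toward library 1, below the share over all genes. Neural progenitor and glial markers summed to 250 and 265 TPM, with 3 toward library 2 and 1 toward library 1. Heart markers summed to 26.9 and 90.7 TPM, with 7 of 8 toward library 2, the direction of Dcn, Bgn and Vcan, and skeletal muscle markers to 111 and 180, with 6 of 8 toward library 2. The part of any of these cell types in the ratios of the 10 genes was not tested. Libraries held 30849058 and 31600302 expected counts, and spike-ins took 15.4 and 15.8% of TPM.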

How the data were processed

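The authors quantified each library against GENCODE M4 gene models on mm10, per their deposited notes, and aligner and quantifier versions and strandedness are not given in the sources used here. The deposited tables hold, for genes and transcripts, the authors' expected counts, TPM, FPKM and posterior mean estimates. They also hold the authors' isoform percent per transcript and the posterior SD of each count, treated here as a score of assignment error. Symbols, positions and exons were taken from GENCODE M21 on the same assembly, where 31 of the 36 transcripts had the same length. The lengths of Has1, Lum, Hapln1 and both Dcn transcripts differed, and their TPM is as deposited.

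Library ratios used TMM in edgeR 4.0.16 (R 4.3.3), with size factors of DESeq2 1.42.0, gene totals, spike-in totals and posterior mean counts as alternatives. Intervals came from scipy 1.17.1 (Python 3.11.15) and were tested on simulated data. The simulated counts held counting error only, so that test says nothing about the spread between pools. The labels call the pools biological replicates, and differences measure the spread between these 2 pools. The text names all 10 genes, transcripts at 5% or more of their gene in either library, the 3 highest genes of each pathway list, and any with no count where these were 3 or fewer. Epyc, named for its position, and the marker genes fall outside that rule. The 10 genes and the 18 other lists were chosen with earlier results of these data known.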

Additional observations from a re-analysis of the deposited data

How the results depend on the processing

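The number of genes detected stayed 8 at 0.5 TPM, with posterior mean TPM, TPM over genes only and either library left out. It became 7 at 2 TPM, where Has2, at 1.46 and 1.35 TPM, dropped out and no synthase was detected. Of the ratios, Has2 to Has1 became 14.25, Vcan to Hapln1 15.4, Vcan to Ncan 19.1 and Bgn to Dcn 2.40 in expected counts, which are not per length. With posterior mean TPM, Has2 to Has3 became 4.96 and Bgn to Dcn 2.00, and the V2 share of Vcan became 0.42%. As shares of expected counts V0 became 76.8% and V3 3.84%, as their lengths require. The count of genes 1.5-fold apart became 0 with a minimum of 100 counts and 0 at 2-fold. The count with an interval that excludes 1 became 3 with spike-in totals. The log2 ratio of Vcan between the libraries, 0.059, turned to -0.0057 with spike-in totals, and the other 35 of 36 recomputed ratios kept their sign. With TPM over genes only, 9 of the 10 levels moved by more than their SD, all upward because spike-ins leave the total. Leaving out 1 of 2 libraries cannot move a mean by more than the SD, so it says nothing about stability. No paired analysis was possible because the libraries form 1 group. Has1 and Has3 are limited by depth, and the intervals cover counting error only.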

Other observations

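Several genes of the pathway lists lay further apart between the libraries than any of the 10 genes with 100 or more counts. Some are named here as examples, after their values were seen. Others were left out, among them Fmod at 1.60-fold and Chst3 at 1.65-fold higher in library 1. Such a distance was common. Of all 16671 genes compared, 28.1% lay at least as far apart as Hapln1, the furthest of those with 100 or more counts. In all, 11.6% differed by 1.5-fold or more. Kera, a corneal and tendon proteoglycan gene, measured 1.11 and 2.72 TPM, 2.50-fold higher in library 2 (95% counting interval 1.74 to 3.67). Layn, which encodes the hyaluronan receptor layilin, measured 2.72 TPM in library 1 and 1.02 in library 2, from 94 and 36 counts. It was 2.61-fold higher in library 1 (1.76 to 3.94). Uap1l1, a relative of the precursor gene Uap1, measured 6.58 and 3.83 TPM, from 243 and 128 counts, 1.89-fold higher in library 1 (1.52 to 2.37). Chsy3, a chondroitin synthase gene, measured 0.96 and 0.36 TPM, 2.66-fold higher in library 1 (1.59 to 4.63). It rested on 56 and 21 counts, fewer than 100 over both libraries, and was below the detection threshold.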
